A study of Mus musculus with 14 samples.

Results

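After BMP6 stimulation, 1456 of the 7339 pSMAD1/5/9 peaks of cultured mouse muscle stem cells (MuSCs) lay at sites with no SMAD4 peak and with no pSMAD1/5/9 peak in control cells. They were chosen by their overlaps in the peak lists. A pSMAD1/5/9 peak found after BMP6 was taken when it shared no base with any peak of 3 other lists, pSMAD1/5/9 of control cells, SMAD4 of BMP6-stimulated cells and SMAD4 of control cells. These peaks made up 19.8% (Wilson 95% interval 18.9 to 20.8) of all pSMAD1/5/9 peaks and 22.4% (21.4 to 23.4) of the 6500 new ones, which are those without a control pSMAD1/5/9 peak. The other 5044 new peaks overlapped SMAD4 and are the set for comparison. Of these, 3463 overlapped a SMAD4 peak of control cells and 1581 only a SMAD4 peak of BMP6-stimulated cells. Since the presence of peaks in 4 lists defined the sites, their number and their lack of SMAD4 are no finding, and a site without SMAD4 is a site where no SMAD4 peak passed the threshold of the list. The 6 lists of the series held 175565 peaks in all.

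The cells came from muscle of female 9-week-old mice of the genotype C57BL/6N(Tg(Pax7-EGFP)Tajb), were sorted for the GFP of the Pax7 reporter, and were grown in culture before use. All cells, controls included, were then kept for 6 h in serum-free medium with 200 ng/mL soluble BMPR1A, which captures BMPs left from the serum. They received 100 ng/mL BMP6 or the vehicle, 4 mM HCl with 0.1% BSA, for 1 h. CUT&Tag uses an antibody on chromatin to direct the Tn5 transposase, which cuts and tags the DNA around it. It was done for pSMAD1/5/9, SMAD4 and the histone mark H3K27ac with 2 biological replicates per condition. Control cells had H3K27ac peaks at the TSSs of all 8 MuSC markers looked up, among them Pax7, Myf5 and Myod1, and at 1 of 4 markers each of fibro-adipogenic (Dpt), endothelial (Tek) and immune cells (Cd68). No such peak was listed at Pdgfra, Pecam1 or Ptprc. The cells were profiled in bulk, so binding in fewer cells and weaker binding per cell cannot be told apart.

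BMPs bind receptor kinases at the cell surface, and the activated type I receptors phosphorylate the receptor-regulated SMADs of the BMP branch, which are detected here as pSMAD1/5/9. The phosphorylated proteins form complexes with SMAD4, the partner that the BMP and TGF-β branches share, and these complexes enter the nucleus and bind DNA at GC-rich sites and at the SMAD box CAGAC. Acetylation of histone H3 at lysine 27 is found at regulatory DNA in use, both near TSSs and far from them. In MuSCs, BMP signaling is known to hold back differentiation.

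The windows of 200 bp around the summits of 7 of the sites without SMAD4 show the kind of DNA found there. The strongest sites with the E-box (Atoh8), the SMAD box (Pin4), the SMAD palindrome (Nudt18) and the TEAD site (Gas1), which were all less frequent than at peaks with SMAD4, and the strongest outside H3K27ac (nearest to Bcor) are shown, and those at Hes1 and Myog stand for the Notch and myogenic genes. The plus strand of GRCm39 is given from 5′ to 3′, and capitals mark matches on either strand to the SMAD box CAGAC, the GC-rich SMAD sites GGAGCC and GGCGCC, the SMAD palindrome GTCTAGAC, the E-box CAGCTG, the SP/KLF site GGGCGG and the TEAD site ACATTCC.
upstream of Atoh8, chr6:72218808-72219007: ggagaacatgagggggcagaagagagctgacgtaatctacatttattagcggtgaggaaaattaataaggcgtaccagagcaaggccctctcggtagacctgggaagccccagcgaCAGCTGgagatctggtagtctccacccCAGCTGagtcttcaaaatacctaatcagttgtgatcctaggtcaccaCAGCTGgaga
TSS of Pin4, chrX:101162851-101163050: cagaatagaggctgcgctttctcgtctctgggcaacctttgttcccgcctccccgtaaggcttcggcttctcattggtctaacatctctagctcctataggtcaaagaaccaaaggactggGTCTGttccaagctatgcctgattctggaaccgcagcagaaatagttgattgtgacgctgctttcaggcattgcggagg
TSS of Nudt18, chr14:70815629-70815828: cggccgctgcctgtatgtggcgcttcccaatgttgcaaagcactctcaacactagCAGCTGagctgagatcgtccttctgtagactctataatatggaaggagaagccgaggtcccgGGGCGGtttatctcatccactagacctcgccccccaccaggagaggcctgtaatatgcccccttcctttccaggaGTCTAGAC
intergenic, nearest TSS Gas1, chr13:60512947-60513146: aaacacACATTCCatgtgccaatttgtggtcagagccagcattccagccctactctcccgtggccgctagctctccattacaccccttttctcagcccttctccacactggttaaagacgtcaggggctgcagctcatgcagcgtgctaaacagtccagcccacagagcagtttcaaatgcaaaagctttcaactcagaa
intergenic on X, nearest TSS Bcor, chrX:11570599-11570798: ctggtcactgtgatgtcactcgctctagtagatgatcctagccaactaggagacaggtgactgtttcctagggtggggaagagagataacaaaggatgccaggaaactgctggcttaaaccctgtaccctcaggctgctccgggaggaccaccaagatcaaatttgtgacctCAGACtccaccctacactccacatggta
TSS of Hes1, chr16:29883925-29884124: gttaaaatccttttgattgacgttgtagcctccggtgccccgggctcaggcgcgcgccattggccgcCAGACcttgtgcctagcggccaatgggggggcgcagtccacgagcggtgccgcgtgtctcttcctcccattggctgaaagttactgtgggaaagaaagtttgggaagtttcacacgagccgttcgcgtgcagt
downstream of Myog, chr1:134235167-134235366: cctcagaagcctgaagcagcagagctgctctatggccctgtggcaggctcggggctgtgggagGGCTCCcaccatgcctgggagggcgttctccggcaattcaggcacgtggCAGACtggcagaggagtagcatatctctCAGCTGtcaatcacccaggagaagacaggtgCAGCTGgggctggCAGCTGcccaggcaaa
The window upstream of Atoh8 held 3 E-boxes and no SMAD motif. The window at Nudt18 held the only SMAD palindrome found at the 1456 sites.

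The sites without SMAD4 were mostly weak peaks. The signal of a peak is a score of the authors' peak caller without a fixed unit, so peaks are given by their rank in the list, with rank 1 as the strongest. The median rank was 5791.5 of 7339, against 2766 for new peaks with SMAD4 in control cells and 4348 for those with SMAD4 only after BMP6. In the strongest 10% of the list, 3 of 733 peaks were new and without SMAD4 (0.409%, 0.139 to 1.20), and in the weakest 10% they were 403 of 734 (54.9%, 51.3 to 58.5). In all, 86.3% (84.5 to 88.0) of the sites without SMAD4 ranked in the lower 50% of the list. Strength affects whether a peak is listed at all and whether it finds a partner in another list, so these values are a description and were not tested.

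**Figure D1:**
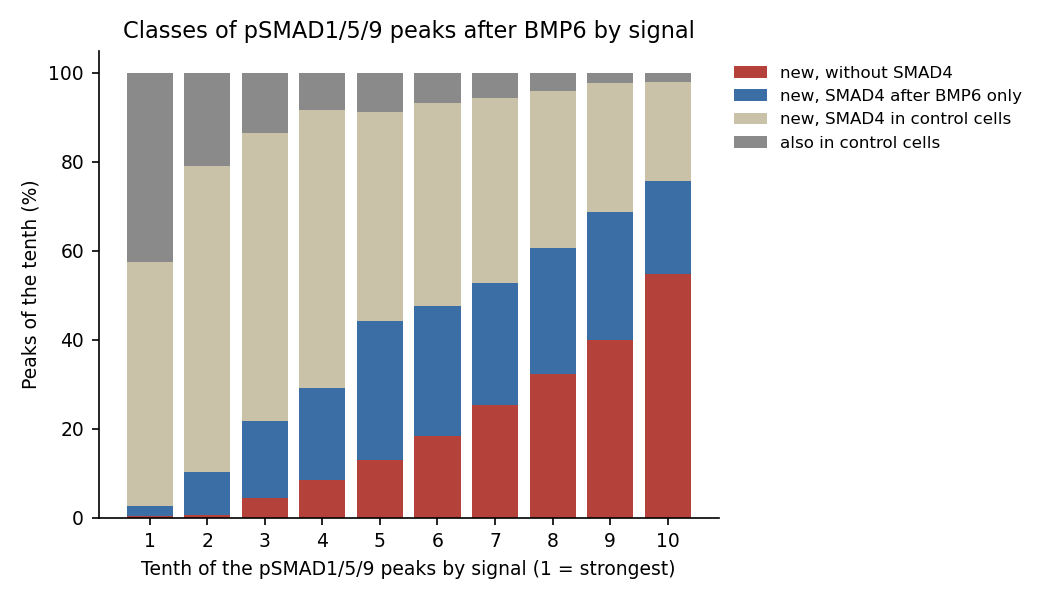
Share of pSMAD1/5/9 peaks after BMP6 in each class (y axis, %) by 10% step of the list ranked by signal (x axis, 1 is the strongest). The class of new peaks without SMAD4 makes up 0.409% of the strongest 10% and 54.9% of the weakest 10%, and its share is higher in each following step.

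The irreproducible discovery rate (IDR), which measures how well both replicates support a peak, had a median of 0.0288 at these sites, close to the limit of 0.05 that the lists were filtered by. It was 0.00503 at new peaks with SMAD4 in control cells. Only 223 sites without SMAD4 (15.3%, 13.6 to 17.3) passed an IDR of 0.01, against 54.9% of the other new peaks. Ranked by each replicate's own signal, the peaks gave a Spearman's rho of 0.388 at the sites without SMAD4 and 0.666 at the other new peaks, which span a wider range of strength. Within the lower 50% of the list the order was the opposite, with 0.199 and 0.0842. The sites were also narrower, with a median width of 459 bp (quartiles 330 and 585) against 597 bp (456 and 780) at the other new peaks.

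Most sites without SMAD4 lay in acetylated chromatin, but less often than the other new peaks. An H3K27ac peak of BMP6-stimulated cells overlapped 1331 of the 1456 sites (91.4%, 89.9 to 92.7) and 5037 of the 5044 other new peaks (99.9%, 99.7 to 99.9), an odds ratio of 0.0148 (adjusted p = 3.29e-72 by an exact test). Fisher's exact test, two-sided, was run across the peaks, and p-values were adjusted by Benjamini-Hochberg over 17 comparisons. Of these 17 comparisons between both sets of peaks, which cover H3K27ac, TSSs, the X chromosome and 14 motifs, 47.1% passed an adjusted p of 0.05. Peaks of a list are not independent replicates, so the p-values describe the lists and not the spread between cultures. The other new peaks were chosen by their overlap with SMAD4, and the paper reports that most SMAD4 peaks overlap H3K27ac. Their high share in H3K27ac was thus largely given by the rule, and the test cannot separate it from that choice. On the autosomes alone, the shares were 97.6% and 99.9% (odds ratio 0.0590, adjusted p = 1.2e-13 by that exact test).

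In control cells, which were parallel cultures given vehicle, H3K27ac overlapped 1303 of these sites (89.5%, 87.8 to 91.0). Of the 1456 sites, 1290 overlapped H3K27ac in both conditions (88.6%, 86.9 to 90.1), 41 only after BMP6 (2.82%), 13 only in control cells (0.893%) and 112 in neither (7.69%, 6.43 to 9.18). Of the other new peaks, 24 overlapped H3K27ac only after BMP6 (0.476%) and 5 in neither condition. Where an H3K27ac peak was present, it was strong. The strongest one at a site had a median position in the top 12.1% of the H3K27ac list of BMP6-stimulated cells, against the top 5.02% at new peaks with SMAD4 in control cells. Of the 1331 acetylated sites, 341 shared their H3K27ac peak with a SMAD4 peak elsewhere in it (25.6%, 23.3 to 28.0), and the other 990 lay in H3K27ac peaks without SMAD4.

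**Figure D2:**
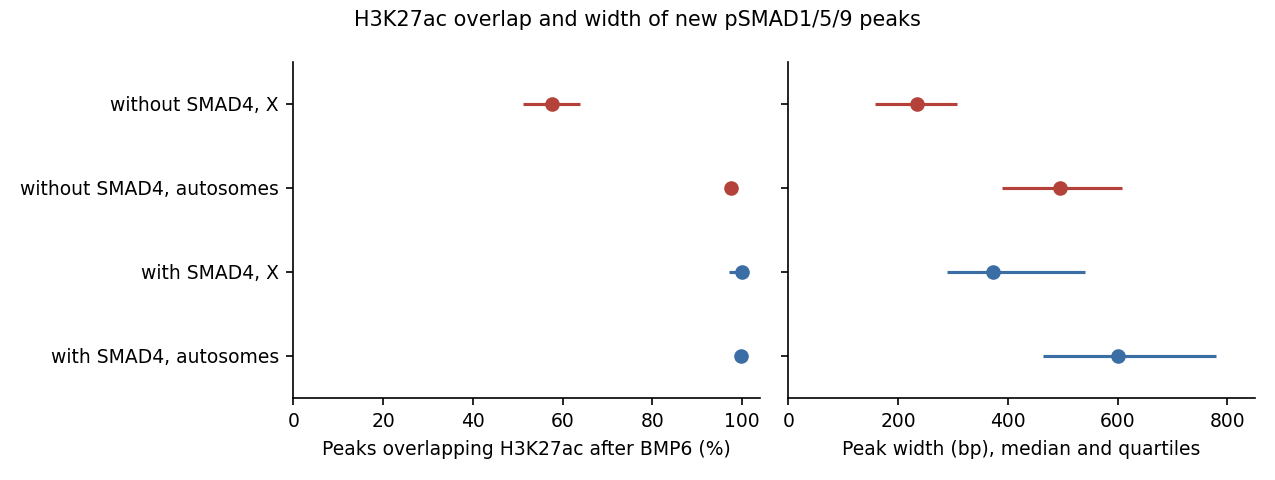
Left, share of new pSMAD1/5/9 peaks that overlap an H3K27ac peak of BMP6-stimulated cells (x axis, %), with Wilson 95% intervals. Right, peak width (x axis, bp) as the median with the quartiles. Peaks without SMAD4 are red and peaks with SMAD4 blue, each for X and for the autosomes. The peaks on the X chromosome without SMAD4 stand apart in both panels, with 57.7% in H3K27ac peaks and a median width of 234 bp.

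The X chromosome held 227 of the 1456 sites without SMAD4 (15.6%, 13.8 to 17.5) and 126 of the 5044 other new peaks (2.50%, 2.10 to 2.97), an odds ratio of 7.21 (adjusted p = 4.28e-67 by that exact test). X held 3.71% of all SMAD4 peaks after BMP6 and 3.05% in control cells, against 5.01% of the pSMAD1/5/9 peaks after BMP6. The rule used the SMAD4 lists, so their lower share on X enters this comparison. Seen from the chromosomes, 61.7% (56.6 to 66.5) of the 368 pSMAD1/5/9 peaks on X were new and without SMAD4. On the autosomes this share ran from 12.3% (9.70 to 15.4) on chromosome 7 to 25.7% (21.2 to 30.9) on chromosome 14, with a median of 18.2%. No autosome overlapped the interval of X. Per 10 Mb of sequence, X had 13.4 such sites, and the autosomes had 4.02 to 6.31. Among peaks in the lower 50% of the list, whose median ranks were closer (6061 without and 5258 with SMAD4), the shares on X were 15.6% and 1.68% (odds ratio 10.8, adjusted p = 3.89e-54 by that exact test), and among peaks up to the median width the odds ratio was 5.98.

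**Figure D3:**
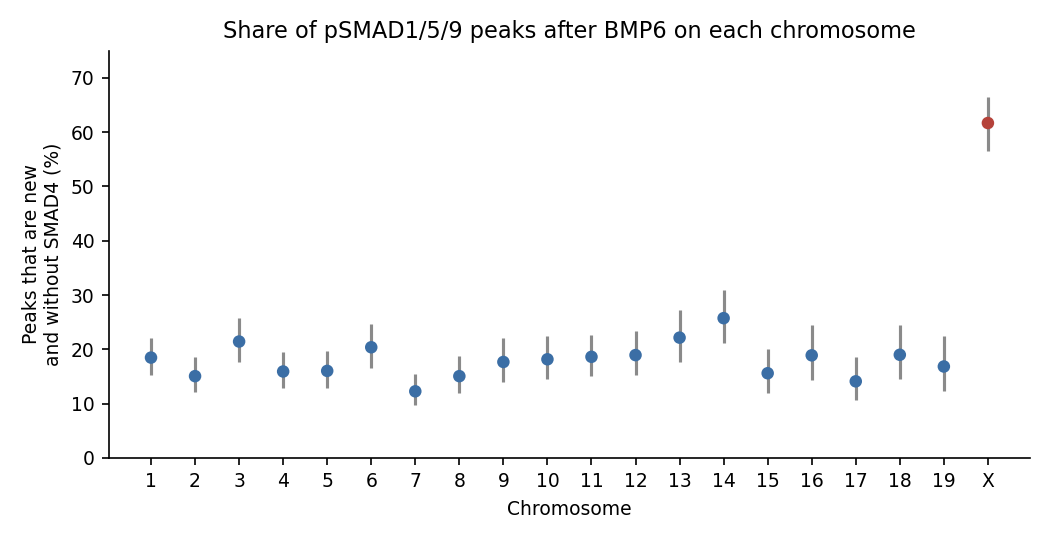
Share of pSMAD1/5/9 peaks after BMP6 that are new and without SMAD4 (y axis, %) on each chromosome (x axis), with Wilson 95% intervals. The autosomes (blue) lie between 12.3% and 25.7%, and the X chromosome (red) at 61.7%.

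The sites on X differed from those on the autosomes. H3K27ac of BMP6-stimulated cells overlapped 131 of 227 sites on X (57.7%, 51.2 to 64.0) and 1200 of 1229 on the autosomes (97.6%, 96.6 to 98.4), an odds ratio of 0.0330 (adjusted p = 1.39e-59 by the exact test, over 3 comparisons chosen once the values were known). In control cells the shares were 55.1% and 95.9%. Sites on X were also less often at a TSS, 21.1% against 33.4% (odds ratio 0.536, adjusted p = 2.42e-04 by that exact test). With an IDR of at most 0.01, 96.9% of the sites on X and 99.0% of those on the autosomes lay in H3K27ac, with an odds ratio of 0.328 that missed the threshold (unadjusted p = 0.373, exact test).

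All 96 pSMAD1/5/9 peaks on X outside H3K27ac were sites without SMAD4, and so were 29 of 36 on the autosomes. Since most SMAD4 peaks overlap H3K27ac, per the paper, the rule made it likely that a peak outside H3K27ac fell in this class. These 96 sites on X were narrow, with a median width of 162 bp (quartiles 156 and 202.5), and weak, with a median rank of 7123 and a median IDR of 0.0463. Only 1 of them passed an IDR of 0.01. Their windows had a median GC content of 42.2%, against 51.5% at the sites on X inside H3K27ac and 54.5% on the autosomes. The nearest SMAD4 peak lay at a median distance of 90151.5 bp. The part of width, signal and IDR in the excess on X was not tested beyond the comparisons given, and peaks on X were narrower than autosomal peaks in all 6 lists. In BMP6-stimulated cells the medians on X and on the autosomes were 273 bp and 588 bp for pSMAD1/5/9, 266 bp and 509 bp for SMAD4 and 1120 bp and 1540 bp for H3K27ac.

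The H3K27ac peaks at the acetylated sites on X were strong and had a median position in the top 2.17% of the list of BMP6-stimulated cells, against the top 13.0% at autosomal sites. X was also where the sites lay most densely. Of the 819 stretches of 1 Mb that held a site without SMAD4, 487 held only 1. The densest stretch ran from 11000001 to 12000000 on X, where 14 of 29 pSMAD1/5/9 peaks were new and without SMAD4, 5 of them outside H3K27ac. The nearest TSSs were those of H2al1j, a histone variant gene, and Bcor, which encodes a transcriptional corepressor. The next, from 7000001 to 8000000 on X, held 12 of 20 peaks, at genes that include Clcn5 and Tfe3, the latter encoding a regulator of lysosomal genes.

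By location, 458 sites without SMAD4 lay within 2 kb of a TSS (31.5%, 29.1 to 33.9), 80 in exons (5.49%), 410 in introns (28.2%) and 508 between genes (34.9%, 32.5 to 37.4). At the other new peaks the TSS share was 34.3% (33.0 to 35.6). The difference did not pass the threshold (odds ratio 0.880, adjusted p = 0.0893 by that exact test), and it depended on the setting. It passed among peaks in the lower 50% of the list (31.1% against 36.1%, odds ratio 0.799, adjusted p = 0.00858 by that exact test), and at an IDR of 0.01 the odds ratio was 1.01. On the autosomes alone, 33.4% of the sites without SMAD4 and 34.0% of the other new peaks lay at a TSS (odds ratio 0.971, adjusted p = 0.844 by that exact test).

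A site in an intron on chromosome 15 from 77047153 to 77047971, with Apol6 as the nearest TSS at 118800 bp, was among the 3 in the strongest 10% of the list. It ranked 567, and 815 and 412 by the value of each replicate alone, so both replicates placed it among the stronger peaks. The nearest SMAD4 peak was 8916 bp away. Another of these 3 lay 6306 bp upstream of Atoh8, a basic helix-loop-helix factor known as a BMP target, from 72218290 to 72219510 on chromosome 6. It ranked 729, and 368 and 2407 by replicate, so its place rested more on the first of these values, and a SMAD4 peak lay 2178 bp from it.

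Of the 20 strongest sites, 9 were at a TSS, 2 in exons, 4 in introns and 5 between genes. All but the one nearest to Bcor overlapped H3K27ac in both conditions, and 6 were on X. The strong sites at TSSs included those of Rbm3 on X, which encodes a cold-inducible RNA-binding protein (rank 896), Pin4 on X, a peptidyl-prolyl isomerase (rank 1195), and Pip4p1, a phosphoinositide phosphatase (rank 1220). Bag6, a chaperone (rank 1629), Polr2a, the largest subunit of RNA polymerase II (rank 1656), Tmem250 (rank 1664), Ntan1, an amidase of protein N-termini (rank 1686), Traf3, an adaptor of TNF receptor signaling (rank 1696), and Renbp on X, which encodes the renin-binding protein (rank 1823), were also among the 10 strongest at a TSS. None of these genes belongs to the BMP, Notch or myogenic lists used here. The site at Renbp overlapped H3K27ac only after BMP6. Among these 9 sites, the ranks by replicate differed most at Renbp (4071 and 679) and least at Traf3 (1777 and 1763).

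Away from TSSs, the strongest sites included one over the end of the last exon of Socs1, a suppressor of cytokine signaling (rank 1199, and 1334 and 1140 by replicate), and introns of which the nearest TSSs were those of Clcn5, a chloride and proton exchanger (rank 1297), Drp2, a relative of dystrophin (rank 1518), and Orm2, an acute phase protein (rank 1557). A site in an exon nearest to Il1r1, an interleukin receptor, ranked 1647. Sites between genes had Phlda1 at 10065 bp (rank 1553), Nqo2, a quinone reductase, at 13171 bp (rank 1727), and H2al1j and Bcor on X at 337860 bp and 376122 bp (ranks 1494 and 1733). At these distances, the nearest TSS names a position and not a target.

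Sequence at the summits differed between both sets. The other new peaks were chosen by their overlap with SMAD4, whose complexes bind the SMAD box and GC-rich sites. That choice enters all 14 motif comparisons, and the tests cannot separate the motif shares from it. The motifs were counted on both strands of the 200-bp window, which has the same length at each peak, so that peak width does not enter. The SMAD box CAGAC was found at 595 sites without SMAD4 (40.9%, 38.4 to 43.4) and at 50.7% (49.4 to 52.1) of the other new peaks (odds ratio 0.671, adjusted p = 1.71e-10 by that exact test). Of all 7339 windows, 48.6% held the SMAD box, 30.2% a GC-rich SMAD site, 0.518% the palindrome, 26.6% an SP/KLF site, 31.1% the E-box CAGCTG and 5.41% a TEAD site. On the autosomes alone the odds ratio was 0.687, in the lower 50% of the list 0.671, and with peaks at a TSS left out 0.590, and it passed the threshold in each. The GC-rich SMAD site GGAGCC or GGCGCC was found at 27.1% (24.8 to 29.4) and 31.2%, respectively (odds ratio 0.816, adjusted p = 0.00597 by that exact test). This difference was lost on the autosomes alone (odds ratio 0.901, adjusted p = 0.283 by that exact test) and in the lower 50% of the list (odds ratio 0.881, adjusted p = 0.238 by that exact test). The SMAD palindrome GTCTAGAC was found at 1 site without SMAD4 (0.0687%, 0.0121 to 0.388) and at 33 of the other new peaks (0.654%, 0.466 to 0.917), an odds ratio of 0.104 with a 95% interval of 0.0143 to 0.764 (adjusted p = 0.00771 by that exact test). In the lower 50% of the list it was found at 1 of 1257 and 13 of 2263 peaks, an odds ratio of 0.138 that missed the threshold (adjusted p = 0.0605 by that exact test). The palindrome was found at 0.866% of the peaks with SMAD4 in control cells and at 0.190% of those with SMAD4 only after BMP6. Against the latter alone the difference missed the threshold (odds ratio 0.362, adjusted p = 0.760 by that exact test), as it did in 5 of the 12 alternatives in all. A GC-rich site followed after 5 bases by GTCT, which is a subset of the GC-rich sites, was found at 5 sites (0.343%) and at 0.258% of the other new peaks (adjusted p = 0.751 by that exact test), and at 0.286% of all windows. None of the SMAD box, the GC-rich site and the palindrome was found at 614 sites without SMAD4 (42.2%, 39.7 to 44.7) and at 31.3% of the other new peaks.

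Motifs of other factors were also less frequent at the sites without SMAD4. The SP/KLF site GGGCGG was found at 20.7% (18.7 to 22.9) against 28.0% (26.7 to 29.2) of the other new peaks (odds ratio 0.674, adjusted p = 1.02e-07 by that exact test), and the E-box CAGCTG, which myogenic factors bind, at 26.3% (24.1 to 28.6) against 32.3% (31.0 to 33.6) (odds ratio 0.748, adjusted p = 4.05e-05 by that exact test). Both differences held in the lower 50% of the list and on the autosomes alone, and neither passed the threshold at an IDR of 0.01, where 223 sites remained (odds ratios 0.859 and 0.720). The TEAD site ACATTCC was found at 4.05% against 5.55% (adjusted p = 0.0486 by that exact test) and missed the threshold in 10 of the 12 alternatives, among them the autosomes alone (odds ratio 0.712, adjusted p = 0.0833 by that exact test). At an IDR of 0.01 the TEAD site passed, with 1.35% against 5.31% (odds ratio 0.243, adjusted p = 0.0251 by that exact test). None of the 14 motifs was more frequent at the sites without SMAD4 beyond the threshold. The 6 that differed, TEAD included, were all less frequent. The RBPJ site, which is ATGGGAA or GTGGGAA and through which the Notch pathway acts, was found at 9.27% (7.89 to 10.9) of the sites and at 8.37% (7.63 to 9.16) of the other new peaks (odds ratio 1.12, 95% interval 0.913 to 1.37, adjusted p = 0.445 by that exact test). The AP-1 site TGAGTCA or TGACTCA was found at 14.2% and 15.8% (odds ratio 0.881, 95% interval 0.746 to 1.04, adjusted p = 0.236 by that exact test). Of all windows, 8.45% held an RBPJ site and 15.5% an AP-1 site. The other motifs compared were the MYC-type E-box (CACGTG), the RUNX site (TGTGGT and the variant TGCGGT), the ETS site (CCGGAA), the NF-Y box (CCAAT) and the CRE (TGACGTCA), with odds ratios from 0.783 for CRE to 1.03 for ETS, and none passed the threshold. A match is a description of the sequence and does not show that a factor was bound.

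The motif content of these sites followed their location. At the 458 sites at a TSS, 48.3% (43.7 to 52.8) held an SP/KLF site and 42.1% (37.7 to 46.7) a GC-rich SMAD site, against 8.12% (6.58 to 9.98) and 20.1% (17.8 to 22.7) of the 998 other sites. The E-box CAGCTG and the SMAD box were found at 13.3% (10.5 to 16.7) and 32.8% (28.6 to 37.2) of the sites at a TSS, against 32.3% (29.4 to 35.2) and 44.6% (41.5 to 47.7) of the others. The median GC content of the windows was 53.8% at all sites without SMAD4 and 56.5% at the other new peaks.

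**Figure D4:**
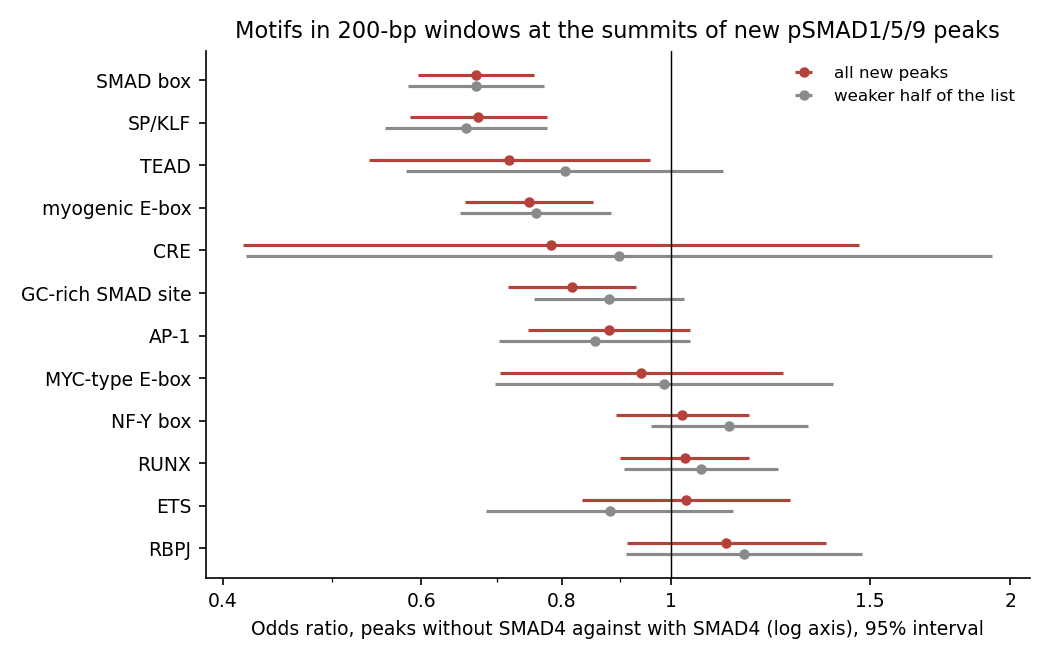
Odds ratio of finding a motif in the 200-bp window at the summit, new pSMAD1/5/9 peaks without SMAD4 against those with SMAD4 (x axis, log scale, with 95% intervals), for the 12 motifs found at 10 or more of the sites. All new peaks are red and those in the lower 50% of the list grey, the myogenic E-box is CAGCTG, the MYC-type E-box CACGTG and the NF-Y box CCAAT. The SMAD box (0.671) and the SP/KLF site (0.674) lie lowest, and no interval lies above 1.

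The sites without SMAD4 were often not far from SMAD4. The nearest SMAD4 peak of either condition lay at a median distance of 16364 bp. It was within 1 kb at 221 sites (15.2%, 13.4 to 17.1), within 10 kb at 596 (40.9%, 38.4 to 43.5) and within 100 kb at 84.9% (83.0 to 86.6). Of the 221 sites within 1 kb, 215 shared an H3K27ac peak with SMAD4. At the limit of the rule, 2 sites touched a SMAD4 peak without sharing a base and 23 lay within 50 bp of it, while 13 of the other new peaks shared under 50 bp with SMAD4, the least of them 2 bp. The other new peaks shared a median of 472 bp.

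**Figure D5:**
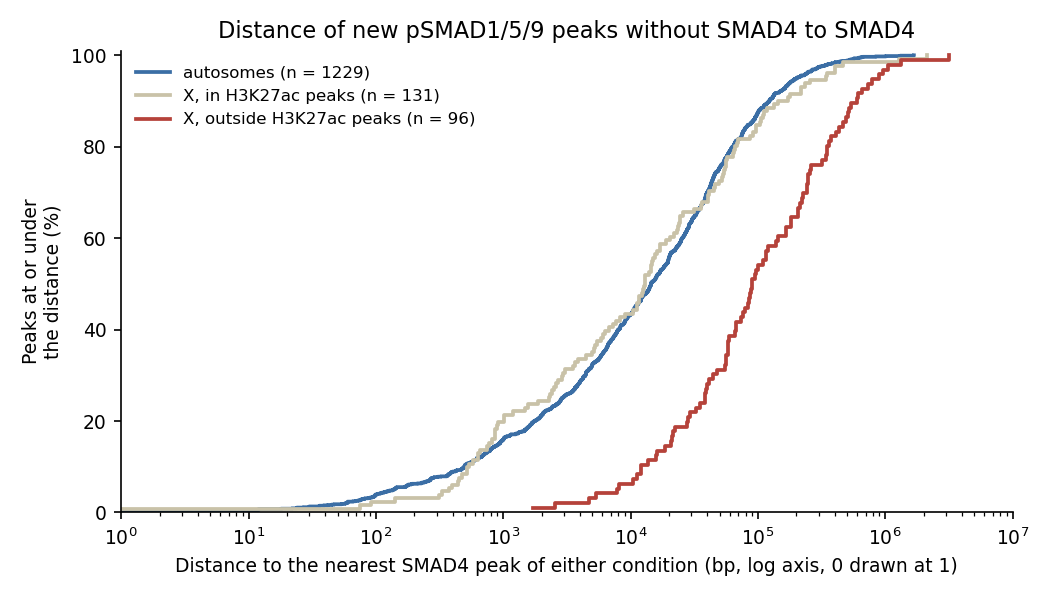
Cumulative share of the sites without SMAD4 (y axis, %) by distance to the nearest SMAD4 peak of either condition (x axis, bp, log scale, 0 drawn at 1). The autosomal sites (1229) and those on X in H3K27ac peaks (131) follow each other closely, with medians of 14517 bp and 12930 bp, and the 96 sites on X outside H3K27ac lie farther away, with none within 1 kb.

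Protein-coding genes were looked up with 20 kb on either side of the body of their canonical transcript. Of 21770 genes, 1823 had a site without SMAD4 in this range, which is 8.37% of genes. For 997 of the 1823 (54.7%) it was the only kind of pSMAD1/5/9 peak after BMP6, while 826 had another pSMAD1/5/9 peak as well. No SMAD4 peak of either condition was listed in the range of 527 genes (28.9%), 60 of them on X. Of the 10 such genes with the strongest sites, 4 had the site at their own TSS. They included Polr2a, Actr3, which encodes a subunit of the complex that branches actin (rank 2064), and Son, a splicing factor (rank 2239). Of all sites, 296 lay farther than 20 kb from every gene.

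Of 147 genes in 10 lists of pathways that matter in MuSCs, 22 had a site without SMAD4 (15.0%), 86 another pSMAD1/5/9 peak (58.5%) and 121 a SMAD4 peak (82.3%). Over all protein-coding genes these shares were 8.37%, 24.5% and 43.5%. At the listed genes, as over all genes, a site without SMAD4 was found at fewer genes than another pSMAD1/5/9 peak. The sites were also the smaller set, 1456 of the 7339 peaks, so their number alone favoured this order. Of the 22 genes, 21 also had SMAD4 within 20 kb, against 71.1% of all 1823 genes with a site. The exception was Spry1, a feedback inhibitor of receptor tyrosine kinase signaling that keeps MuSCs quiescent, whose site lay 14588 bp from the TSS between genes, ranked 4829, and was 82989 bp from the nearest SMAD4 peak.

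Among the BMP genes, 4 of 20 target and feedback genes had a site without SMAD4. Atoh8 had 2 of them beside 7 other pSMAD1/5/9 peaks. Id3, an inhibitor of basic helix-loop-helix factors, had a site 3130 bp downstream of the TSS that ranked 4850 (3586 and 6589 by replicate) and lay 435 bp from SMAD4, and it had 5 other pSMAD1/5/9 peaks. Ski, a corepressor of SMADs, had 1 site beside 11 other peaks. Id4 differed from these, since its only pSMAD1/5/9 peak was a site without SMAD4. This lay 171 bp upstream of the TSS of Id4 from 48414241 to 48414483 on chromosome 13, ranked 6843 (6988 and 6025 by replicate) with an IDR of 0.0371, and its nearest SMAD4 peak was 14502 bp away. At Id1, the classical BMP target, no site without SMAD4 was listed, and all of its 5 pSMAD1/5/9 peaks belonged to the other classes. Of 16 genes of receptors, ligands and SMADs, only Smad4 itself had a site, which ranked 6965. This site lay between genes, 73717 bp from the TSS of Smad4, and the nearest TSS was that of Mex3c.

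Of 21 Notch genes, Hes1, Snai1 and Notch2 had sites without SMAD4. The site at Hes1, a transcriptional repressor and effector of Notch, covered the TSS with its summit 102 bp upstream. It ranked 2762 (1848 and 5105 by replicate) with an IDR of 0.0154, and SMAD4 lay 522 bp away. Its window held a SMAD box and an RBPJ site, and Hes1 had 2 other pSMAD1/5/9 peaks. Within 20 kb of Hes1, 4 SMAD4 peaks were listed after BMP6. From a visual look at the traces, the paper describes more pSMAD1/5/9 and SMAD4 at Hes1 after BMP6, and it places both at the promoter. The site counts as without SMAD4 only because no listed SMAD4 peak shares a base with it. Snai1, which encodes a zinc finger repressor, had 2 sites, in an intron 2137 bp from the TSS and downstream at 5912 bp, with ranks of 5516 and 6856, and 3 other peaks. The site at Notch2 lay in an exon and ranked 6778, and the nearest TSS was that of Adam30. No site without SMAD4 was listed at Hey1 or Lfng.

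Of 17 myogenic genes, Myog and Mymk had sites without SMAD4. Myog, which encodes the myogenic factor that starts terminal differentiation, had 3 sites and 1 other pSMAD1/5/9 peak. The strongest, 17560 bp downstream of the TSS in an intron of another gene, ranked 3371 (2690 and 4518 by replicate) with an IDR of 0.00796, and its window held 3 E-boxes CAGCTG, a SMAD box and a GC-rich SMAD site. The others lay 13797 bp and 12825 bp upstream and ranked 4998 and 6815. Mymk, which encodes the fusion factor myomaker, had a site at its TSS with rank 6163. No site without SMAD4 was listed at Pax7, Myod1 or Myf5, while Pax7 had 15 other pSMAD1/5/9 peaks, Myod1 had 4 and Myf5 had none.

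In the other lists, 4 of 12 Hippo genes had sites without SMAD4. Amotl2, which encodes an angiomotin, had the strongest of them, in an exon (rank 1881, and 2214 and 1594 by replicate, IDR 0.00114), followed by Wwtr1, the coactivator TAZ, in an intron (rank 3272), Tead1 (rank 6287) and Ccn1 with 2 sites (ranks 6616 and 7073). Tgfb3, which encodes a TGF-β ligand, had a site at its TSS (rank 7046) that lay 39 bp from a SMAD4 peak. Of 16 Wnt genes, Fzd7, a Wnt receptor, had a site at its TSS (rank 4869) and Tcf7l1, a transcriptional repressor of the pathway, had 3 sites (ranks 4305, 5789 and 6888), and neither gene had another pSMAD1/5/9 peak. Of 14 cell cycle genes, Myc had a site at its TSS that ranked 6534 and lay 30 bp from a SMAD4 peak, and Cdk4 had 1 with rank 7319. Itga7, a laminin receptor of MuSCs, had a site in an intron (rank 5986) beside 7 other peaks, and with Spry1 it was 1 of 2 among 13 genes of the MuSC surface and niche. None of 8 AP-1 genes had a site without SMAD4, and 7 of them had other pSMAD1/5/9 peaks. Over all protein-coding genes 8.37% had a site without SMAD4, and differences of these small lists from that share were not tested. At Tead1, Cdk4 and the strongest site of Tcf7l1, the nearest TSS was that of another gene, namely Rassf10, Agap2 and Tgoln1, respectively. All sites named at listed genes overlapped H3K27ac in both conditions.

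A group of canonical histone genes is described here because of its values. On chromosome 13, from 23000001 to 24000000, 8 of 12 pSMAD1/5/9 peaks were new and without SMAD4, and 7 of these lay at the TSSs of H2ac6, H2ac8, H2bc9, H3c1, H3c2, H3c6 and H4c3. The site at H2ac6 was the strongest of the 7, with rank 3125 (4396 and 1982 by replicate) and a summit 28 bp from the TSS. That at H3c1 was the weakest, with rank 6615 (6381 and 6197 by replicate), and a SMAD4 peak lay 3 bp from it. The copies of these genes are alike in sequence, and only reads with a high mapping quality had been kept. How far this likeness affects the peaks at single copies was not tested. All 8 sites overlapped H3K27ac after BMP6.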

How the data were processed

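MuSCs given BMP6 or vehicle were profiled by CUT&Tag with antibodies to pSMAD1/5/9, SMAD4 and H3K27ac, in 2 biological replicates each. Of 14 samples, 12 entered the 6 lists used. The other 2 had no primary antibody and were not analysed here. Per the methods, the authors brought the libraries of each antibody to the same number of reads, aligned with Bowtie2 2.5.4 to GRCm39, filtered them with SAMtools 1.21, converted them with bedtools 2.31.1, called peaks per replicate with JAMM and kept peaks shared by both replicates at an IDR of 0.05. The filtered JAMM peaks were used for pSMAD1/5/9 and SMAD4 and the unfiltered ones for H3K27ac. The deposited signal of each peak is a score of the peak caller, and the deposited lists give the IDR as −log10 of the value. They hold no read counts, so the reads behind a single peak are unknown, and precision rests on 2 replicates per list. Replicate columns carry no replicate number.

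Overlaps of 1 bp, distances and locations (GENCODE vM39 canonical transcripts, by any overlap of the peak, in the order TSS within 2 kb, exon, intron, intergenic) were computed in Python 3.11.15 with pandas 2.3.3, numpy 2.4.6 and pysam 0.24.0. The count of sites was the same with bedtools 2.31.1. Fisher's exact tests and Wilson intervals came from scipy 1.17.1, figures from matplotlib 3.10.9. The overlap, distance, motif search and exact test steps were tested on simulated data. Wilson intervals cover counting error over peaks only.

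The sites, lists, motifs and tests were chosen with earlier results of these data known. Named genes are those nearest to the 20 strongest sites, those of the 10 strongest sites at a TSS, listed genes with a site, and 10 genes named by the study, which are Id1, Hes1, Hey1, Lfng, Snai1, Myf5, Myog, Myod1, Mymk and Pax7. Some genes that these rules name are not reported here. Actr3, Son, Nudt18, Gas1, Tfe3 and the histone genes were named after their values had been seen.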

Additional observations from a re-analysis of the deposited data

How the results depend on the processing

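No paired analysis was possible because each condition is a single consensus list and its replicate columns carry no number. The overlap with H3K27ac and the excess on X kept their direction and passed the threshold under all 12 and all 9 alternatives, with odds ratios from 0.00308 to 0.0590 and from 5.43 to 10.8. Each of these alternatives still compared with peaks chosen by their overlap with SMAD4. An IDR of 0.01 left 223 sites and 312 genes near them, with 28.3% of the sites in the lower 50% of the list. It left 2 motifs that differed, the SMAD box and the TEAD site, and brought the TSS odds ratio to 1.01. It also took the difference in H3K27ac between X and autosomal sites, an alternative added after the data had been seen, below significance (odds ratio 0.328). With an overlap of 50% of both peaks required, 2340 peaks counted as new and without SMAD4. The TSS range alone held 509 genes, and SMAD4 of BMP6-stimulated cells alone lay within 10 kb of 36.3% of sites.

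The lower TSS share passed the threshold with sites at least 1 kb from SMAD4 (odds ratio 0.833), in the lower 50% of the list (0.799), up to the median width (0.750), against peaks with SMAD4 after BMP6 only (0.830), with all basic transcripts (0.850) and with lncRNA genes (0.764). In the lower 50%, 3 motifs differed. With the lower 50% ranked by either replicate column alone, 82.7% to 84.0% of sites lay in it, the TSS odds ratio was 0.783 to 0.822 and 3 to 4 motifs differed. The cause of these changes was not tested. The lists give no reads per peak, so a weak SMAD4 signal under the IDR threshold was not detectable here.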
